A study of Apis mellifera with 18 samples.

Results

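The comparison of the ventriculus with the Malpighian tubules used the 12 RNA-seq libraries that carry these tissue labels, of 18 libraries in all, joined in pairs by patriline. Each of 6 patrilines (P1, P7, P8, P11, P21 and P24) gave 1 ventriculus library and 1 tubule library, so the comparison rests on 6 pairs. Of 28396 annotated features, 8618 transcripts had enough counts in these libraries to be tested. The question was which transcripts separate the digestive from the excretory part of the gut.

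The libraries come from honey bee (Apis mellifera) workers of 1 colony, whose queen had mated with many drones, and a patriline is the set of workers with the same father. Every worker had been fed clothianidin, a neonicotinoid insecticide, at 4.27 ppb, and was frozen 24 h later, having been taken from the colony at an age of 7 days and fed on the day after, so exposure is shared by both tissues, and unexposed workers were not analysed here. A ventriculus library and the tubule library of the same patriline hold RNA of the same 5 workers, pooled at 300 ng each, which makes a patriline pool the replicate. The patrilines had been picked from both ends of survival in an earlier exposure, but the labels do not give the end from which each came, so whether any subset of patrilines coincides with survival was not tested.

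The ventriculus is the midgut of the bee, where food is digested by secreted enzymes and nutrients are taken up through a folded epithelium that is renewed from stem cells. The Malpighian tubules are blind-ended tubes that open into the gut where the midgut meets the hindgut. They secrete the primary urine by ion and water transport and are known, with the midgut, as a site of detoxification by cytochrome P450 enzymes.

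The total count lay between 54449338 and 87946924 fragments in the ventriculus libraries and between 39722329 and 48644797 in the tubule libraries. The ambiguous class, which holds fragments that overlap more than 1 transcript and are therefore counted on none, took 30.9% to 32.9% of fragments in the ventriculus and 45.6% to 47.2% in the tubules. It was lower in the ventriculus in 6 of 6 patrilines, by 14.2 percentage points ± 0.644 (SD, n = 6 pairs), with p = 0.03125 in an exact two-sided sign-flip permutation test, the smallest that 6 pairs allow (0.0312 after adjustment over the 4 library values tested). Levels below are normalised CPM, which are counts scaled to library size and TMM factors, and logFC is the log2 difference, ventriculus minus tubules, with its standard error (SE).

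The ventriculus libraries were dominated by few transcripts. The 10 most abundant took 44.1% ± 1.97 of the counts in the ventriculus and 18.6% ± 1.05 in the tubules (SD, n = 6 each). The number of transcripts with at least 1 CPM of the raw library was 5738 ± 153 in the ventriculus and 6928 ± 345 in the tubules (SD, n = 6 each). Non-coding transcripts took 1.61% ± 0.0833 of counts in the ventriculus and 2.10% ± 0.277 in the tubules (SD, n = 6 each). Each of these values moved in the same direction in 6 of 6 patrilines, with p = 0.03125 in the exact sign-flip permutation test (adjusted p = 0.0312 over the 4 values).

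Of the 8618 transcripts, 2707 were higher in the ventriculus (31.4% of those tested) and 2998 were higher in the tubules (34.8%), together 66.2%, by edgeR's quasi-likelihood test with the patriline as a block and a Benjamini-Hochberg adjusted p under 0.05. A change of at least 4-fold was found for 602 transcripts on the ventriculus side (6.99%) and 788 on the tubule side (9.14%), together 16.1%. The far end was longer in the ventriculus, with 26 transcripts at a logFC of at least 5 and 2 in the tubules at -5 or less. The split depends on how libraries are scaled. With library size alone, 750 transcripts were higher in the ventriculus and 6755 in the tubules, because that scaling moved the median logFC of all transcripts from -0.05 to -1.18. The TMM factors lay between 0.596 and 0.768 in the ventriculus and between 1.38 and 1.65 in the tubules, and every change below is relative to that scaling. In bulk tissue, fewer cells of a type and less RNA per cell cannot be told apart.

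**Figure D1:**
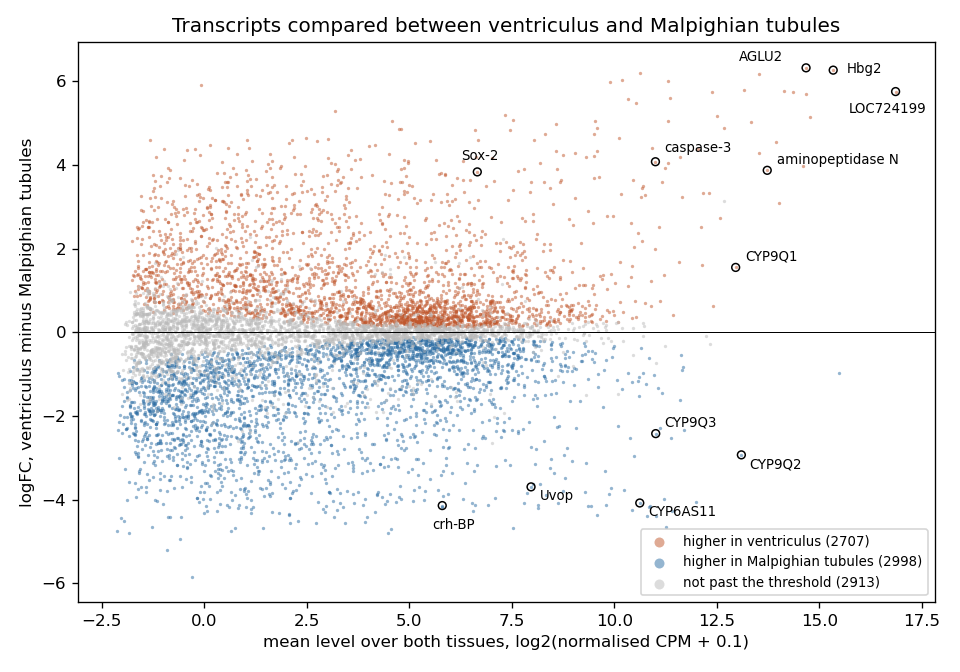
Each point is 1 of the 8618 transcripts tested, with its mean level over both tissues on a log2 axis and its logFC (ventriculus minus Malpighian tubules). The circled transcripts are described in the text, and the abundant transcripts at the right edge lie mostly above 0, such as Hbg2 at 6.27.

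Nectar-processing enzymes made the largest difference. AGLU2, an alpha-glucosidase that splits sucrose and is also listed under the synonym Hbg1, had 39367, 50413 and 66561 CPM (lowest, median and highest library) in the ventriculus, against 158, 773 and 3490 CPM in the tubules. Hbg2, a further alpha-glucosidase, had 50464, 81298 and 112439 CPM in the ventriculus, against 289, 871 and 7342 CPM in the tubules. The lowest ventriculus library stood above the highest tubule library for both enzymes, as it did, or the reverse, for 42.7% of all transcripts tested. The logFC was 6.32 (SE 0.77, adjusted p = 0.000261 by edgeR) for AGLU2 and 6.27 (SE 0.89, adjusted p = 0.000545) for Hbg2, with the ventriculus higher in 6 of 6 patrilines. Hbg3, another alpha-glucosidase of the bee, had 47.2, 67.4 and 92.0 CPM in the ventriculus and 2.41, 18.9 and 554 CPM in the tubules. Its tissues overlapped, with the tubules higher in P11 and P21 and the ventriculus higher in the other 4 patrilines, and it did not pass the test (logFC 1.80, SE 1.14, adjusted p = 0.197).

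The most abundant transcript of the ventriculus was that of LOC724199, which carries no name in the sources used here. It alone took between 13.8% and 17.04% of all counts in the ventriculus libraries and between 0.321% and 2.74% in the tubule libraries. Its level was 179595, 253731 and 261590 CPM in the ventriculus and 2333, 2916 and 19325 CPM in the tubules. The tissues did not overlap, and the logFC was 5.75 (SE 0.87, adjusted p = 0.000786), though the call was lost in P7, P11 and P24 alone (logFC 6.10, adjusted p = 0.0658). The other transcripts among the 5 most abundant were those of the unnamed genes LOC726352 (logFC 5.14) and LOC410894 (logFC 5.68) beside the 2 alpha-glucosidases. LOC113219265, also unnamed, followed AGLU2 and Hbg2 on the ventriculus side with a logFC of 6.21 (SE 0.61, adjusted p = 8.78e-05), with 1155, 3299 and 4837 CPM in the ventriculus against 8.42, 30.0 and 139 CPM in the tubules.

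Of 12 enzymes that break down protein, fat, glycans and sphingolipids, 11 were higher in the ventriculus and 0 in the tubules. Of all transcripts tested, the shares were 31.4% and 34.8%. The median logFC of the 12 enzymes was 3.71, against -0.05 over all transcripts tested. These 12 come from the transcripts that the study tabulated for their levels in these same tubule libraries, so their direction is not independent evidence. Trypsin, a serine endopeptidase, had 2430, 3608 and 5024 CPM in the ventriculus and 79.3, 140 and 464 CPM in the tubules (logFC 4.41, SE 0.47, adjusted p = 0.000134). Serine protease 53 had 18731, 21867 and 24384 CPM in the ventriculus and 331, 1044 and 3141 CPM in the tubules (logFC 4.30, SE 0.55, adjusted p = 0.000322). The tissues did not overlap for either protease.

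The most abundant member was an aminopeptidase N (LOC551180), a membrane enzyme that trims peptides from their amino end, at 17798, 25954 and 33190 CPM in the ventriculus and 510, 1957 and 5082 CPM in the tubules (logFC 3.87, SE 0.62, adjusted p = 0.00104). Lipase 3 had a logFC of 3.51 and beta-hexosaminidase subunit beta, which removes terminal amino sugars, one of 3.64. The endothelin-converting enzyme homolog did not pass the test, with 2.21, 3.06 and 6.43 CPM in the ventriculus and 0.403, 2.09 and 4.65 CPM in the tubules (adjusted p = 0.0579). A chymotrypsin inhibitor was itself high in the ventriculus, at 3991, 4267 and 5651 CPM against 100.7, 335 and 816 CPM in the tubules (logFC 3.93, SE 0.55, adjusted p = 0.000504). Gfat2, which makes the amino sugar used for chitin and glycans, had 148, 174 and 207 CPM in the ventriculus and 11.5, 41.8 and 85.4 CPM in the tubules (logFC 2.41, SE 0.50, adjusted p = 0.00391). The chymotrypsin inhibitor and Gfat2 were tabulated by the study in the same way, so their direction is not independent evidence either.

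The listed carriers for nutrients and ions followed the same direction. Of 7 carriers from the same tabulated transcripts, 6 were higher in the ventriculus and 0 in the tubules, with a median logFC of 3.62. Of all transcripts tested, the shares were 31.4% and 34.8%. The direction of these 7 is likewise not independent evidence, and carriers outside the tabulated transcripts were not counted here. The NPC intracellular cholesterol transporter 1 homolog 1b had 625, 749 and 1107 CPM in the ventriculus and 52.5, 131 and 298 CPM in the tubules (logFC 2.71, SE 0.35, adjusted p = 0.000369). Sodium/potassium/calcium exchanger 3 had 344, 442 and 544 CPM in the ventriculus and 22.2, 46.4 and 89.7 CPM in the tubules (logFC 3.36, SE 0.36, adjusted p = 0.000141). Neither carrier overlapped between tissues. Fabp, which binds fatty acids inside cells, had 635, 765 and 808 CPM in the ventriculus and 14.6, 80.6 and 177 CPM in the tubules (logFC 3.64, SE 0.56, adjusted p = 0.000881). Zinc transporter ZIP1 had 218, 237 and 307 CPM in the ventriculus and 9.73, 19.4 and 43.5 CPM in the tubules (logFC 3.62, SE 0.37, adjusted p = 0.000103). These carriers of fat and metal separated the tissues as well, and a cationic amino acid transporter (LOC551796) had a logFC of 3.65. The member that did not pass was mitochondrial uncoupling protein 2 (logFC 0.31).

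Transporters named after trehalose, the main blood sugar of insects, went in opposite directions. The facilitated trehalose transporter of LOC552592 had 33.9, 53.4 and 57.7 CPM in the ventriculus and 0.757, 3.55 and 12.8 CPM in the tubules (logFC 3.90, SE 0.55, adjusted p = 0.000552). The transcript XM_006570577.3 of the gene Tret1 had 28.3, 46.3 and 67.7 CPM in the ventriculus and 210, 234 and 253 CPM in the tubules (logFC -2.35, SE 0.19, adjusted p = 3.51e-05). Each separated the tissues completely. The study tabulated the LOC552592 transcript for its levels in these same tubule libraries, so its direction is not independent evidence. The gene Tret1 has 8 annotated transcripts, and the values given are for XM_006570577.3 only.

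Caspase-3, an executioner protease of apoptosis, was a ventriculus transcript in these libraries. It had 2693, 3962 and 4409 CPM in the ventriculus, against 86.1, 219 and 652 CPM in the tubules (logFC 4.08, SE 0.48, adjusted p = 0.000229). Among regulators, the SOX list held 3 transcription factors, all taken from the study's tabulated transcripts, so their direction is not independent evidence. All 3 were higher in the ventriculus, as were 31.4% of all transcripts tested, with a median logFC of 3.47. Sox-2 was the most abundant of them, at 115, 188 and 254 CPM in the ventriculus and 4.07, 13.1 and 41.8 CPM in the tubules (logFC 3.83, SE 0.55, adjusted p = 0.00057). The homeobox protein Nkx-2.8 had 41.3, 64.04 and 98.2 CPM in the ventriculus and 0.851, 2.44 and 8.94 CPM in the tubules (logFC 4.53, SE 0.41, adjusted p = 5.99e-05). Short neuropeptide F, a signalling peptide linked to feeding in insects, had 53.1, 56.5 and 63.8 CPM in the ventriculus and 1.56, 6.52 and 12.3 CPM in the tubules (logFC 3.52, SE 0.46, adjusted p = 0.00037), the only one of 3 peptide hormone transcripts that passed the test. None of these 4 transcripts overlapped between tissues. Nor did the growth/differentiation factor of LOC102653748, a secreted signal, with 78.0, 105 and 119 CPM in the ventriculus and 2.93, 7.23 and 17.6 CPM in the tubules (logFC 3.80, SE 0.32, adjusted p = 4.64e-05). The mast/stem cell growth factor receptor of LOC725670, a receptor tyrosine kinase by name, had 49.7, 56.7 and 68.7 CPM in the ventriculus and 1.32, 3.46 and 11.4 CPM in the tubules (logFC 4.05, SE 0.46, adjusted p = 0.000175). Caspase-3, the SOX factors, Nkx-2.8, short neuropeptide F and the growth factor and receptor were tabulated by the study as well. Of all 96 tabulated transcripts, 87 were higher in the ventriculus and 1 in the tubules, beside 31.4% and 34.8% of all transcripts. The 96 were tabulated for their levels in these same tubule libraries, so their count is not independent evidence. The 1 on the tubule side was fatty-acid amide hydrolase 2-B, with 1.55, 3.07 and 7.62 CPM in the ventriculus and 24.5, 47.2 and 92.1 CPM in the tubules (logFC -3.68, SE 0.46, adjusted p = 0.000287).

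**Figure D2:**
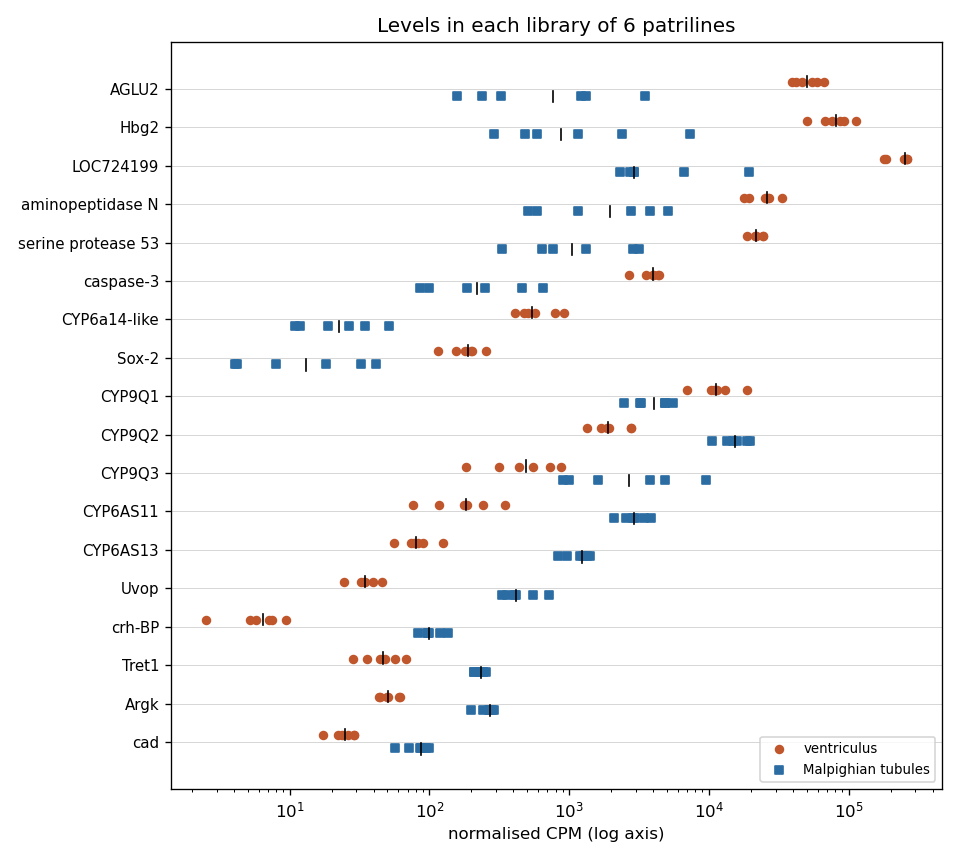
Normalised CPM on a log axis for 18 transcripts, with 1 point per library (6 ventriculus libraries above, 6 tubule libraries below) and a black tick at each median. The points of the tissues do not overlap for any of the 18, as for 42.7% of all transcripts tested. The 18 were picked from the transcripts named in the text, so their separation is a description only. CYP9Q1 lies on the ventriculus side while CYP9Q2 and CYP9Q3 lie on the tubule side.

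The listed cytochrome P450 enzymes, which oxidise toxins and hormones, were split between the tissues, with the larger part on the tubule side. Of 9 P450 transcripts tested, 2 were higher in the ventriculus and 6 in the tubules, with a median logFC of -2.42. Of all transcripts tested, the shares were 31.4% and 34.8%. The list covered 11 genes, matched by name or taken from the study, so P450 genes outside it were not counted. The CYP9Q genes, known in the honey bee for metabolising insecticides, differed among themselves. CYP9Q1 had 6926, 11168 and 18857 CPM in the ventriculus and 2479, 4075 and 5522 CPM in the tubules (logFC 1.55, SE 0.25, adjusted p = 0.00112). CYP9Q2 had 1336, 1894 and 2793 CPM in the ventriculus, against 10522, 15356 and 19574 CPM in the tubules (logFC -2.93, SE 0.27, adjusted p = 6.14e-05), where it was the most abundant messenger RNA. CYP9Q3 had 183, 495 and 876 CPM in the ventriculus and 900, 2703 and 9516 CPM in the tubules (logFC -2.42, SE 0.55, adjusted p = 0.00579). Each gene pointed the same way in 6 of 6 patrilines, and no tubule library overlapped a ventriculus library. The calls of CYP9Q2 and CYP9Q3 held in 16 of 16 other analyses. That of CYP9Q1 held in 13 of 16 and was lost with library size alone (logFC 0.42, adjusted p = 0.111), with all 18 libraries in the fit (logFC 1.50, adjusted p = 0.0661) and in P7, P11 and P24 alone (logFC 1.43, adjusted p = 0.0521).

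CYP6 enzymes were likewise divided. CYP6AS11 (LOC724946) had 76.5, 182 and 347 CPM in the ventriculus and 2101, 2910 and 3845 CPM in the tubules (logFC -4.08, SE 0.34, adjusted p = 4.32e-05). CYP6AS13 (LOC551028) had 55.5, 80.0 and 124 CPM in the ventriculus and 835, 1229 and 1419 CPM in the tubules (logFC -3.82, SE 0.20, adjusted p = 1.23e-05). The probable cytochrome P450 6a14 of LOC107965400, which the study tabulated as well, went the other way. It had 407, 539 and 925 CPM in the ventriculus and 10.9, 22.8 and 51.3 CPM in the tubules (logFC 4.74, SE 0.47, adjusted p = 9.38e-05). The tissues did not overlap for these 3 transcripts. Near-identical P450 copies lose shared fragments in counting, so their levels are uncertain.

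Enzymes that act on glutathione and reactive oxygen had 12 transcripts tested, of which 2 were higher in the ventriculus and 7 in the tubules (31.4% and 34.8% of all transcripts were), with a median logFC of -0.36. Several of them are transcripts of the same gene, including 3 of GstD1. GstD1, a glutathione S-transferase, had 1.76, 2.76 and 7.32 CPM of its transcript XM_006563331.3 in the ventriculus and 34.0, 59.7 and 64.6 CPM in the tubules (logFC -3.99, SE 0.24, adjusted p = 1.51e-05). Tpx-4, a thioredoxin peroxidase, was the most abundant of the list at 991, 1166 and 1748 CPM in the ventriculus and 2594, 3351 and 4250 CPM in the tubules (logFC -1.45, SE 0.13, adjusted p = 6.79e-05). Trxr-1, thioredoxin reductase, was low but higher in the ventriculus, with a logFC of 2.29 for transcript NM_001178025.1 (SE 0.24, adjusted p = 0.000111).

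Uvop encodes the ultraviolet-sensitive opsin of the bee's photoreceptors. It had 24.7, 34.4 and 46.1 CPM in the ventriculus, against 333, 415 and 718 CPM in the tubules (logFC -3.69, SE 0.23, adjusted p = 1.67e-05). The 6 brain libraries held 30.8, 43.3 and 339 CPM of it (lowest, median and highest library), on a scaling over all 18 libraries. crh-BP, a binding protein for hormones of the corticotropin-releasing family in vertebrates, had 2.51, 6.40 and 9.48 CPM in the ventriculus and 83.3, 98.7 and 136 CPM in the tubules (logFC -4.14, SE 0.31, adjusted p = 2.7e-05). Jhe, an esterase that degrades juvenile hormone, had 76.6, 116 and 255 CPM in the ventriculus and 337, 517 and 1060 CPM in the tubules (logFC -2.03, SE 0.16, adjusted p = 3.03e-05). These 3 transcripts were higher in the tubules in 6 of 6 patrilines, with no overlap, and the call for Uvop held in 16 of 16 other analyses.

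Among transcripts with a mean of at least 50 CPM in the tubules, the 3 largest differences on that side belonged to genes without names in the sources used here. LOC724315 had 5.71, 17.2 and 22.5 CPM in the ventriculus and 309, 343 and 408 CPM in the tubules (logFC -4.67, SE 0.34, adjusted p = 2.49e-05). LOC726965 (logFC -4.66) and LOC102655631 (logFC -4.40) were next. Argk, arginine kinase, which buffers ATP in tissues with high energy use, had 43.4, 50.4 and 62.0 CPM of transcript XM_006559182.3 in the ventriculus and 200, 271 and 291 CPM in the tubules (logFC -2.32, SE 0.14, adjusted p = 1.44e-05). C1q-VP, named as a C1q-like venom protein, had 5.02, 9.52 and 14.2 CPM in the ventriculus and 81.2, 96.7 and 123 CPM in the tubules (logFC -3.42, SE 0.21, adjusted p = 1.51e-05). All 5 separated the tissues. LOC726672, without a name as well, was among the 5 most abundant transcripts of the tubules, at 179, 447 and 954 CPM in the ventriculus and 4414, 7537 and 10286 CPM in the tubules (logFC -4.05). Hsc70-4, a heat shock cognate chaperone that was equally among those 5, did not pass the test (logFC -0.27, adjusted p = 0.146).

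The list of patterning and gut regulators had 5 transcripts of cad, Kr and Dl tested. Those of cad and Kr were higher in the tubules, and of the 3 Dl transcripts 1 was higher in the ventriculus (logFC 0.58, and -0.55 with library size alone). Kr was low, with 0.183, 0.356 and 0.498 CPM in the ventriculus and 0.256, 1.07 and 5.14 CPM in the tubules. Its tissues overlapped, with the tubules higher in 5 of 6 patrilines (logFC -1.83, adjusted p = 0.0279 by edgeR). That call was lost without P11, P21 or P24 (adjusted p between 0.0643 and 0.0747) and in P7, P11 and P24 alone (0.22). The transcription factor cad, the caudal homeobox protein that patterns the hind part of the insect body and gut, had 17.3, 25.03 and 29.1 CPM in the ventriculus and 56.9, 87.0 and 99.2 CPM in the tubules (logFC -1.75, SE 0.098, adjusted p = 1.39e-05). Vha16, a subunit of the proton pump that drives tubule secretion, had 1718, 2267 and 2609 CPM in the ventriculus and 3234, 4321 and 5081 CPM in the tubules (logFC -0.91, SE 0.12, adjusted p = 0.000331). Both were higher in the tubules in 6 of 6 patrilines, without overlap. Vha16 was the only gene of the ion and water transport list that the gene table names, so the tubule label was checked on that gene alone, and its call was lost in P7, P11 and P24 alone (logFC -0.84, adjusted p = 0.0598). The mitochondrial ribosomal RNA KEF36_r02 was the most abundant feature of the tubules, at 25532, 29886 and 37741 CPM in the ventriculus and 48035, 60306 and 73058 CPM in the tubules. Its adjusted p of 0.0489 (logFC -0.96, SE 0.37) stayed under 0.05 in 5 of the 15 other analyses that included it, over a range from 6.3e-05 to 0.433.

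**Figure D3:**
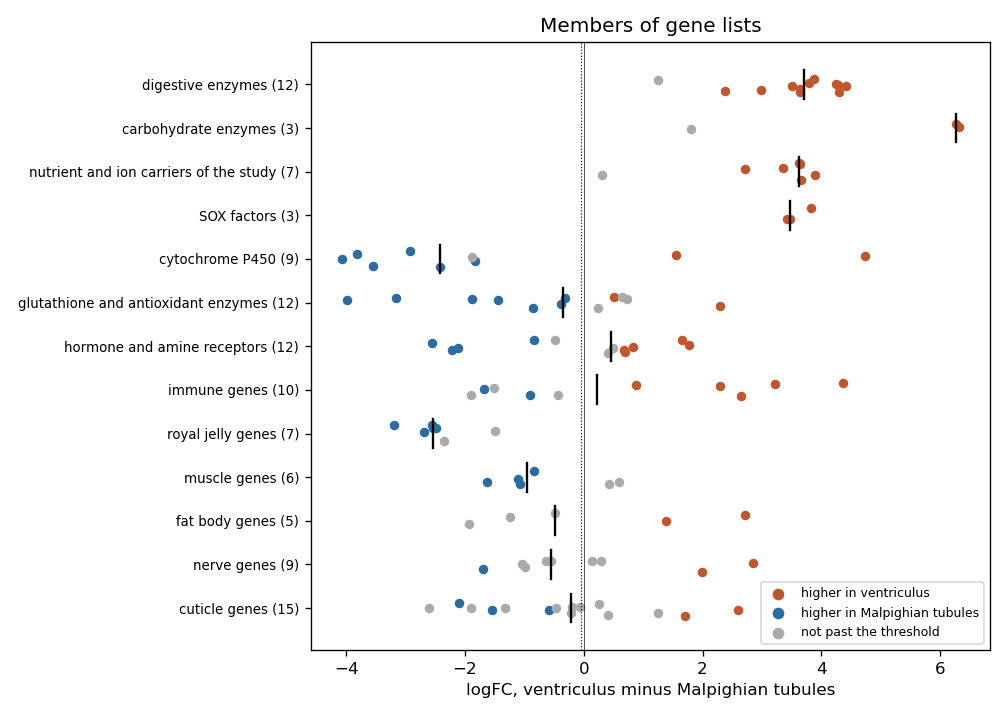
logFC (ventriculus minus Malpighian tubules) of every tested member of 13 gene lists, with the number tested in parentheses, a black tick at each list's median and a dotted line at the median of all transcripts (-0.05). Digestive and carbohydrate enzymes, carriers and SOX factors lie to the right, and most P450 and royal jelly transcripts to the left.

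Of 12 transcripts for hormone and amine receptors, 5 were higher in the ventriculus and 4 in the tubules, and of 10 immune transcripts, 5 were higher in the ventriculus and 2 in the tubules, beside 31.4% and 34.8% of all transcripts. 18-w, a Toll-family receptor, had 34.7, 95.7 and 152 CPM in the ventriculus and 5.75, 23.0 and 42.1 CPM in the tubules, with overlapping libraries (logFC 2.30, SE 0.49, adjusted p = 0.00435). The study tabulated 18-w for its tubule levels as well, so its direction is not independent evidence. PGRP-S3, a peptidoglycan recognition protein, had 2.90, 6.26 and 18.0 CPM in the ventriculus and 15.3, 17.6 and 53 CPM in the tubules (logFC -1.69, SE 0.23, adjusted p = 0.000476). The list medians, 0.45 for receptors and 0.23 for immune genes, turned negative with library size alone (-0.67 and -0.90). InR-2, an insulin receptor, was low but had no overlap, with 0.228, 0.291 and 0.427 CPM of XM_006568694.3 in the ventriculus and 1.32, 1.83 and 2.65 CPM in the tubules (logFC -2.55, SE 0.24, adjusted p = 7.38e-05). Transcripts of Ecr, the ecdysone receptor, differed in direction. XM_016913298.2 was higher in the ventriculus (logFC 0.67, SE 0.16, adjusted p = 0.00684, and -0.46 with library size alone), and NM_001159355.1 was higher in the tubules (logFC -2.12, SE 0.16, adjusted p = 3e-05).

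Opposite transcripts of the same gene were found in 5 genes where each transcript was called with at least a 2-fold change and at least 10 CPM in its higher tissue. The widest gap was in LOC409604, where XM_026445862.1 had 9.05, 10.3 and 13.03 CPM in the ventriculus and 0.662, 1.30 and 2.79 CPM in the tubules (logFC 2.95). Its transcript XM_016916924.2 had 3.33, 6.38 and 12.8 CPM in the ventriculus and 62.9, 98.0 and 127 CPM in the tubules (logFC -3.77). In LOC725829 the logFC was 3.18 for one transcript and -3.14 for the other, in LOC409057 it was 2.87 and -2.13, in LOC410211 it was 3.51 and -1.17, and in LOC408876 it was 1.32 and -1.31. The ventriculus transcript of LOC409057 was tabulated by the study for its tubule levels. The calls in LOC408876 were lost for XM_026441571.1 with library size alone (logFC 0.19, adjusted p = 0.0807) and for XM_026441570.1 with all 18 libraries (logFC -1.48, adjusted p = 0.0867). Only fragments unique to 1 transcript were counted, so these values compare the unique parts and not whole isoforms.

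MicroRNA genes were read through fragments of their hairpin transcripts, at low levels. Of 37 hairpins tested, 11 were higher in the ventriculus (31.4% of all transcripts were) and 12 in the tubules. Mir1175 had 5.27, 6.01 and 8.69 CPM in the ventriculus and 0.0788, 0.442 and 1.33 CPM in the tubules (logFC 3.93, SE 0.56, adjusted p = 0.000561). It was tabulated by the study for its tubule levels, so its direction is not independent evidence. Mir750 had 7.22, 8.21 and 9.79 CPM in the ventriculus and 1.83, 2.71 and 3.57 CPM in the tubules (logFC 1.64, SE 0.16, adjusted p = 7.59e-05). Mir277 went the other way at 0.0237, 0.162 and 0.281 CPM in the ventriculus and 0.902, 1.01 and 1.34 CPM in the tubules (logFC -2.82, SE 0.43, adjusted p = 0.000781). The tissues did not overlap for these 3 hairpins. The other hairpins higher in the ventriculus were Mir6046 (logFC 3.49), Mir125 (1.70), Mir283, Mir7, Mirlet7, Mir3747b, Mir9883, Mir3726 and Mir9865, of which Mir7, Mirlet7, Mir3747b, Mir9883, Mir3726 and Mir9865 turned to the tubule side with library size alone. The call of Mirlet7 was also lost without P7, P8, P11, P21 or P24 (adjusted p between 0.0651 and 0.101) and with no filter on low counts (0.0802). Those higher in the tubules were Mir3772 (logFC -3.72), Mir3730, Mir6065, Mir34 (-2.07), Mir14, Mir281, Mir87-1, Mir6060, Mir9888, Mir927a and Mir6053. The call of Mir6060 was lost without P1, P7, P11 or P24 (adjusted p between 0.0525 and 0.0991) and without the patriline block (0.135).

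By class of RNA, 2407 of 7483 protein-coding transcripts were higher in the ventriculus (32.2%) and 2553 in the tubules (34.1%), with a median logFC of -0.03. Of all transcripts tested, the shares were 31.4% and 34.8%, so the protein-coding shares lay near those of all transcripts. Of 1034 long non-coding RNAs, 275 were higher in the ventriculus (26.6%) and 408 in the tubules (39.5%), with a median logFC of -0.34. Of 19 transfer RNA genes tested, 0 were higher in the ventriculus and 14 in the tubules (median logFC -0.72). The transfer RNA count on the tubule side lay between 8 and 15 when any 1 patriline was left out, and 0 were higher in the ventriculus in each of those analyses.

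Some of the transcripts that changed at least 4-fold belonged to neighbouring genes. In the gene order of RefSeq Amel_HAv3.1, with untested genes passed over, 6499 protein-coding genes were tested, and 6.65% had a transcript at least 4-fold higher in the ventriculus and 7.82% in the tubules. There were 13 runs of at least 3 neighbours on the ventriculus side, with 52 genes, and 18 runs on the tubule side, with 62 genes. The longest run held 10 ventriculus genes, whose logFC lay between 3.41 and 4.53, and included the gene of beta-hexosaminidase subunit beta. A run of 7 ventriculus genes reached 6.03. On the tubule side, Mrjp6, Mrjp5, Mrjp7 and Mrjp8 formed a run of 4, and CYP6AS11 stood in another. Neighbours of similar sequence can share fragments, which makes their counts uncertain, and the number of runs was not tested.

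The brain level was set beside the higher of the gut tissues, which is also what selected these transcripts, so the shares are a description only. Of the 602 transcripts at least 4-fold higher in the ventriculus, 259 (43.0%) had a mean brain level under 5% of the higher gut tissue, against 69 of the 788 tubule transcripts (8.76%). Conversely, 47 of the ventriculus transcripts (7.81%) and 239 of the tubule transcripts (30.3%) had a brain level above both gut tissues. Over all 8618 transcripts tested, 4.92% had a brain level under 5% of the higher gut tissue. A brain level above both gut tissues was found for 37.2% of them, a larger share than on either side. A mean brain level can rest on the highest library. Among tubule transcripts, LOC726965 had a brain median of 0.726 CPM and a highest brain library of 700 CPM, while crh-BP had 76.6 and 79.4 CPM. On the ventriculus side, Hbg2 had 2.14 and 89.7 CPM. Shares by brain median were not counted, so these shares do not show how widely tubule transcripts are present in the brain.

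Genes of other tissues that a dissected gut can carry were present in both tissues at levels that differed widely between libraries. The counts of called members below stand against 31.4% of all transcripts higher in the ventriculus and 34.8% in the tubules. The 43 features of the muscle list summed to between 23.6 and 205 CPM in the ventriculus and between 62.6 and 331 CPM in the tubules, with 32 features at 0 in the 12 libraries, and 4 of 6 tested members were higher in the tubules (0 in the ventriculus). The 7 fat body features summed to between 114 and 600 CPM in the ventriculus and between 132 and 1826 CPM in the tubules, and Vg, the yolk protein vitellogenin, did not pass the test (adjusted p = 0.0936). Hex70c and HEX70b, storage proteins of the same list, were higher in the ventriculus. Of 9 nerve transcripts tested, 2 were higher in the ventriculus and 1 in the tubules, and the 151 features of that list summed to between 14.3 and 48.6 CPM in the ventriculus and between 11.7 and 80.1 CPM in the tubules. Of 15 cuticle transcripts, 2 were higher in the ventriculus and 3 in the tubules, and the 26 features summed to between 42.0 and 184 CPM in the ventriculus and between 35.0 and 471 CPM in the tubules. The 3 venom features summed to between 0.731 and 12036 CPM in the ventriculus and between 4.24 and 454 CPM in the tubules, with 0 of 2 tested members called, and the highest value came from Melt, the honey bee toxin melittin, at 11897 CPM in the P7 ventriculus. Of 13 odorant-binding and chemosensory transcripts, 1 was higher in the ventriculus and 2 in the tubules, and the 39 features summed to between 144 and 3774 CPM in the ventriculus and between 347 and 4110 CPM in the tubules. Of 2 yellow-family transcripts, 0 were higher in the ventriculus and 1 in the tubules, and the 7 features summed to between 9.92 and 19.7 CPM in the ventriculus and between 6.16 and 246 CPM in the tubules. In P7, P11 and P24 alone, 2 muscle transcripts and 3 royal jelly transcripts were called in the tubules. The part of such tissues in the tubule and ventriculus results was not tested.

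The royal jelly genes, known from the head glands of nurse bees, had 5 of 7 tested members higher in the tubules (34.8% of all transcripts were) and 0 in the ventriculus. Mrjp7 had 14.4, 40.0 and 48.8 CPM in the ventriculus and 128, 210 and 245 CPM in the tubules (logFC -2.53, SE 0.13, adjusted p = 1.23e-05). Mrjp8 had 12.5, 15.6 and 24.7 CPM in the ventriculus and 72.8, 96.1 and 133 CPM in the tubules (logFC -2.56, SE 0.086, adjusted p = 6.06e-06). These 2 members separated the tissues in every patriline. Mrjp3 also passed (logFC -3.19, adjusted p = 0.00066), but its tubule level was 1357 CPM in P21 and between 1.402 and 221 CPM in the other 5, and its call was lost without the patriline block (adjusted p = 0.0728). Mrjp1 had 6501 CPM in the P21 tubules and did not pass (logFC -1.50, adjusted p = 0.102), though it did with limma-voom (logFC -2.57, adjusted p = 0.00872) and with library size alone (logFC -2.60, adjusted p = 0.00776). The summed list lay between 4821 and 236891 CPM in the brain libraries, on the scaling over all 18 libraries. Its members differed there, with Mrjp1 between 3940 and 188822 CPM, Mrjp7 between 54.7 and 1429 CPM and Mrjp8 between 14.6 and 39.9 CPM. The part of head tissue in the tubule values was not tested.

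The level of ventriculus transcripts in the tubule libraries varied with the patriline. Over the 100 transcripts with the largest ventriculus excess and at least 100 CPM, which this comparison itself chose, the median tubule level as a percentage of the ventriculus level was 9.90% in P1, 4.15% in P7, 13.95% in P8, 3.67% in P11, 8.45% in P21 and 2.32% in P24. The study had tabulated 33 of these 100, and over the other 67 the median was 6.01% in P1, 3.01% in P7, 11.5% in P8, 4.33% in P11, 5.92% in P21 and 2.63% in P24. In the opposite direction, the 100 transcripts with the largest tubule excess stood at 10.4% of their tubule level in P1, 7.81% in P7, 11.9% in P8, 13.2% in P11, 15.9% in P21 and 7.77% in P24.

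**Figure D4:**
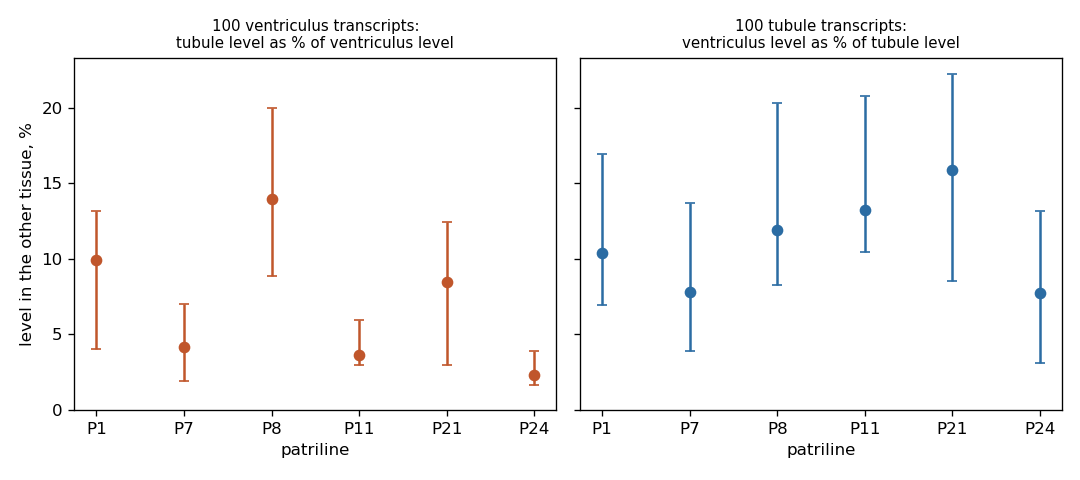
Left, tubule level as a percentage of the ventriculus level for the 100 transcripts with the largest ventriculus excess, and right, the ventriculus level as a percentage of the tubule level for the 100 with the largest tubule excess, for each patriline (points are medians, bars the quartiles). On the left the patrilines lie between 2.32% in P24 and 13.95% in P8.

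Ventriculus transcripts did not keep the same percentage within a tubule library. Hbg2 stood at 0.518% of its ventriculus level in the P1 tubules, 0.428% in P7, 8.47% in P8, 4.71% in P11, 0.778% in P21 and 1.02% in P24. The aminopeptidase N of LOC551180 stood at 14.1% in P1, 4.57% in P7, 19.2% in P8, 3.07% in P11, 15.5% in P21 and 1.54% in P24. In P1, P7 and P21 the percentage of the aminopeptidase was many times that of the glucosidase, while in P8, P11 and P24 the values lay closer in proportion. AGLU2 and LOC724199 were below 2% in P1, P7, P21 and P24 and highest in P8 (5.87% and 7.79%). The aminopeptidase was tabulated by the study for its tubule levels in these patrilines, and the glucosidases were not. Whether ventriculus tissue was present in the tubule samples was not tested. In P7, P11 and P24 alone, a choice made after seeing these medians that itself favours a larger ventriculus excess for such transcripts, 2099 transcripts were higher in the ventriculus and 2079 in the tubules, and 12 of the 12 digestive enzymes, 7 of 7 carriers and 1 of 9 P450 transcripts were called on the ventriculus side, with 6 P450 transcripts on the tubule side.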

How the data were processed

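Total RNA of ventriculi and Malpighian tubules was sequenced as 100 bp paired ends. Per the study's methods, the authors trimmed reads (those under 50 bp were removed), aligned them with STAR and deposited HTSeq counts per transcript, unnormalised. Neither tool versions nor the strand setting were given in the sources used here. The methods name build Amel_4.5, whereas the accessions match RefSeq Amel_HAv3.1, so no coordinates are given, and that table supplied symbols, synonyms and gene order only. The classes of unassigned fragments were removed before scaling; no feature took 6.26% to 7.91% of fragments in the ventriculus and 9.40% to 11.1% in the tubules.

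Transcripts passing filterByExpr (minimum count 10, minimum total 15) were tested with edgeR 4.0.16 (quasi-likelihood, TMM, patriline as a block, Benjamini-Hochberg threshold 0.05) in R 4.3.3. The block rests on the shared workers of a patriline, and the deviations of same-patriline libraries correlated at 0.119 to 0.463, each over 0.1, although in P8 (0.181) and P24 (0.119) a library of another patriline correlated more closely (0.215 and 0.227). The deposited name of the P8 ventriculus table lacks the patriline number, and its sample was taken from the series record. SE is the absolute logFC over the square root of F. Library values were tested by exact two-sided sign-flip permutation. On simulated data with 8618 transcripts, the fit recovered 70 of 100 transcripts changed 2-fold and 100 of 100 changed 4-fold. It called 6 unchanged ones. Only these sets of 100 were changed, whereas 66.2% of transcripts were called in the real comparison. With so few changed, the simulation cannot show how the TMM scaling or the rate of false calls behaves in the real comparison.

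Named transcripts were, per direction, the 3 largest logFC of any name and the 15 largest of named genes (called, same sign in 6 patrilines, mean of at least 50 CPM), the 5 most abundant per tissue, examples from 23 gene lists, transcripts the study names, genes with opposite transcripts and microRNA hairpins called. LOC113219265, LOC726352 and other unnamed genes entered by level or size. Members and lists were chosen with earlier results of these data known. Alternatives used other scalings, filters and tools (DESeq2 1.42.0, limma 3.58.1), no block, all 18 libraries, gene sums and each patriline left out. Promoter motifs were not analysed here.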

Additional observations from a re-analysis of the deposited data

Results flagged for a closer look

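In 32 of the 214 groups of 6 libraries examined, the highest or the lowest library lay far from the other 5 relative to the range of the group. The threshold is one that about 1 in 20 groups pass by chance where values are normal and independent. The CPM were not log-transformed and the groups share libraries, so the 32 cannot be set against that rate. Of the 32, 10 were ventriculus groups and 22 tubule groups, and of the 22, 8 concerned the P11 tubules and 8 the P21 tubules. In the P8 tubules, AGLU2 stood at 3490 CPM (at most 1314 CPM in the other tubule libraries), Hbg2 at 7342 CPM (at most 2377 CPM) and LOC724199 at 19325 CPM (at most 6684 CPM).

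In the P11 tubules, the high values were 246 CPM for Cpap3-d, a cuticle protein, 53 CPM for PGRP-S3, 283 CPM for the muscle gene TpnCIIIa, 18.6 CPM for the acetylcholine receptor subunit nAChRa9, 232 CPM for the cuticle gene CPR22, 54.9 CPM for transcript XM_016914249.2 of LOC410211, 12.4 CPM for Mir6060 and 1.72 CPM for Mir9865. The P11 ventriculus was also high for TpnCIIIa (178 CPM, against at most 27.9 CPM in the other ventriculus libraries), CPR22 (70.8 CPM) and Tpx-4 (1748 CPM). In the P21 tubules, Mrjp1 stood at 6501 CPM, Mrjp3 at 1357 CPM, Y-f at 243 CPM, nAChRa1 at 42.4 CPM, the tyramine receptor TyrR at 7.23 CPM, the cuticle genes CPR6 at 5.97 CPM and CPR5 at 1.52 CPM, and Kr at 5.14 CPM.

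The P7 ventriculus held 11897 CPM of Melt, against at most 352 CPM in the other ventriculus libraries. The P24 ventriculus was high for LOC726315, sphingomyelin phosphodiesterase 1 (1295 CPM), and for the chymotrypsin inhibitor LOC725202 (5651 CPM), the P8 ventriculus for LOC410729, a putative serine protease (1038 CPM), and the P24 tubules for transcript XM_026439833.1 of LOC725829 (18.0 CPM). At low levels, TyrR was high in the P24 ventriculus (9.02 CPM), Mir14 in the P1 ventriculus (0.546 CPM) and Mir6065 in the P1 tubules (5.75 CPM), while Mir6065 was low in the P24 ventriculus (0.479 CPM) and Mir9883 in the P7 tubules (1.68 CPM). The part of other tissues or of single workers in these values was not tested.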

How the results depend on the processing

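Of the settings tried, library size alone, without TMM factors, moved the counts most. It gave 750 transcripts higher in the ventriculus and 6755 in the tubules, and 268 and 1998 at 4-fold or more. In that setting Dl XM_006566998.3 (-0.55), Ecr XM_016913298.2 (-0.46), CPR22 (-0.70), Y-f (-0.73), Mir7 (-0.067), Mirlet7 (-0.104), Mir3747b (-0.13), Mir3726 (-0.36), Mir9865 (-0.39) and Mir9883 (-0.34) changed sign. The scaling itself moves the median of all transcripts. Without the patriline block, 2567 transcripts were higher in the ventriculus and 2963 in the tubules, with Melt at 3.85, CPR22 at -1.21 and Y-f at -1.86, which changed sign, and Mir6060, Mrjp3 and TpnCIIIa no longer called. The sign also changed in limma-voom for CPR22 (-0.51) and Y-f (-0.95), over the analyses that left out 1 patriline for CPR22 (-0.22 to 1.03) and CSP3 (-1.04 to 0.0355), and in P7, P11 and P24 alone for Melt (0.45). Melt, CPR22, Y-f and CSP3 were not called in the reported fit, and the cause was not tested.

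Leaving out 1 patriline at a time gave 2428 to 2755 transcripts higher in the ventriculus and 2704 to 2893 in the tubules, and 559 to 663 and 747 to 895 at 4-fold or more. The alternatives chosen after seeing the data gave 2773 and 2976 without ribosomal RNA features, and 2099 and 2079 in P7, P11 and P24 alone, where 91 of 107 named transcripts kept direction and call. With DESeq2 107 of 107 did, and with limma-voom 103. The search for promoter motifs was not run. Transcripts with few unique fragments limit the isoform, microRNA and transfer RNA values.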
